A study of Mus with 5 samples.

Results

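*Nkx2-5* (ENSMUSG00000015579, written *Nkx2.5* in the study) is the gene whose locus drove Cre in these embryos, and it is 1 of the 12857 genes with deposited values. It was taken by its Ensembl identifier. Transcripts were sequenced from E14.5 mouse hearts without the atria, that is, ventricles and valves. The transgenic pools were made from *Nkx2.5*Cre/+;*Bmp2*tg/+ embryos, in which Cre made in the heart cuts out a β-Geo stop cassette at *Rosa26* and a CAG promoter then transcribes a mouse *Bmp2* cDNA with IRES-eGFP. The WT pools carry neither allele by their label. Each of the 3 transgenic and 2 WT pools held the hearts of 4 embryos. The authors had left out another WT pool because it clustered poorly with the other WT samples. The WT spread used here is therefore that of pools kept for being alike. Crosses that the study describes for this genotype, of *Bmp2*tg/+ males with *Nkx2.5*Cre/Cre females, give only embryos with a Cre allele. How the WT embryos were bred is not given in the sources used here, and whether they lack the Cre allele was not tested. How Cre was placed in the locus is not given either. By the labels no group has the Cre allele without the transgene, so their effects cannot be told apart.

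Nkx2-5 is a homeodomain transcription factor of the NK family. It marks cardiac progenitors and the myocardium from the first heart field onwards, and it works with Gata4, Tbx5 and other factors on promoters of contractile, conduction and natriuretic peptide genes. BMP signals through Smad proteins help to switch the gene on in cardiac progenitors, while the Nkx2-5 protein is known to restrain *Bmp2* and Smad1 signalling in the early heart. Its dose matters, since people with a mutation in a single *NKX2-5* allele can have septal defects and conduction block. Lines that express Cre from this locus may either replace coding sequence of the gene or leave it in place. The level in hearts that carry such an allele is therefore of interest in itself, and the loss of 1 of 2 equally active alleles would leave 50% of the RNA, a log2 difference of -1.

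The gene lies on chromosome 17 of GRCm38 at chr17:26838664-26844988 (RefSeq, GRCm38.p6), a span of 6325 bases. Its nearest protein-coding neighbours in RefSeq are *Bnip1*, which ends 46.1 kb away, and *Kifc5b*, which starts 72.1 kb away on the other side. The deposited values carry Ensembl identifiers, and apart from *Nkx2-5* a name could be paired with them for only 406 genes, those that the study listed as differing between the genotypes. Of the 17 other protein-coding genes within 500 kb of *Nkx2-5*, 0 were among these. The nearest that were are *Hmga1*, an architectural chromatin protein, at 711.6 kb, and *Pkd1*, the polycystin-1 gene, at 2242 kb. On the whole chromosome, 20 of the 1059 protein-coding genes were among them. Identifiers of the other neighbours were not paired with names, so their levels are not analysed here. Primers for this transcript in quantitative PCR are shown because they are the only sequence given for it in the sources used here. The primers are written 5′ to 3′. Their positions were not determined, and the PCR values are not used.
Nkx2-5 forward: ggcttgtccagctccact
Nkx2-5 reverse: cattttacccgggagcctac

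*Nkx2-5* RNA did not differ between the genotypes by more than the spread of the pools. The transgenic pools 1, 2 and 3 were at 47.6, 46.5 and 50.4 CPM (counts per 1000000 reads of a scaled library size, as the authors deposited them). The WT pools 1 and 2 were at 52.5 and 42.5 CPM. All 3 transgenic pools thus lay between both WT pools, and the groups overlapped completely. The means were 48.2 ± 2.01 CPM (SD, n = 3 pools) in transgenic and 47.5 ± 7.11 CPM (SD, n = 2 pools) in WT hearts. The difference was 0.653 CPM, well under the SD of either genotype.

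**Figure D1:**
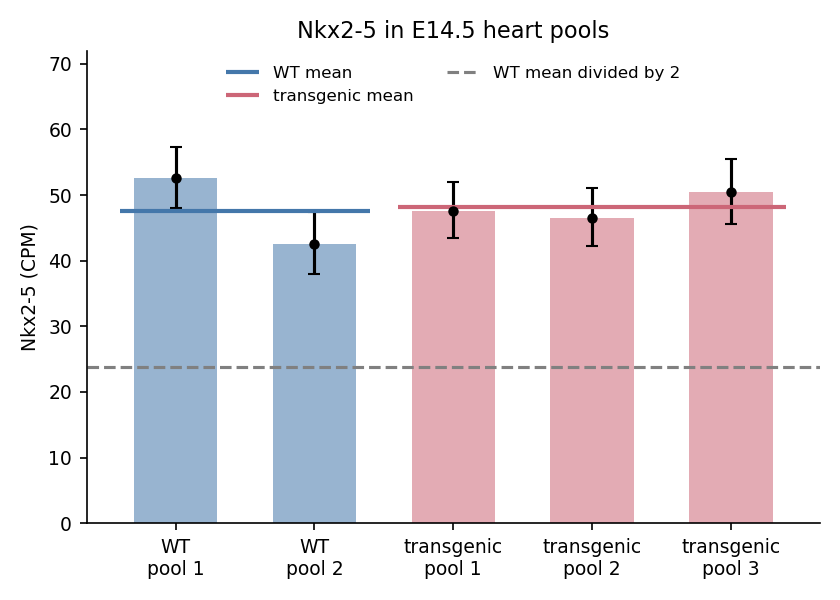
*Nkx2-5* in CPM (vertical axis, from 0) in each of the 2 WT and 3 transgenic pools. Bars and points are the pool values, whiskers are 95% counting intervals of the reads, solid lines are the means of the genotypes and the dashed line is the WT mean divided by 2 (23.8 CPM); the transgenic pools, at 46.5 to 50.4 CPM, sit between the WT pools and far above the dashed line.

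Transgenic pools 1, 2 and 3 held 100.2%, 97.8% and 106.1% of the WT mean. The level that loss of 1 of 2 alleles would leave, the WT mean divided by 2, was 23.8 CPM. The lowest transgenic pool was 1.96-fold above it. Taken against the higher WT pool alone, that level would be 26.3 CPM, and the lowest transgenic pool was still 1.77-fold above it. No transgenic pool came near that level, whichever WT pool was taken as the reference. The level, like the log2 difference of -1, stands for a single active allele only if the WT embryos had 2 intact alleles. It would lose that meaning if they also carried Cre. That meaning also requires that the Cre allele gives no reads counted for this gene and that the other allele does not compensate. Neither was tested, so RNA above the level does not show that both alleles were intact in transgenic hearts.

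The values rest on 498, 433 and 403 reads of *Nkx2-5* in transgenic pools 1, 2 and 3, and on 497 and 317 reads in WT pools 1 and 2. Counting alone gives these numbers a relative error of 4.48% to 5.62%. The 95% counting interval (exact Poisson) was 48.0 to 57.4 CPM in WT pool 1 and 37.9 to 47.4 CPM in WT pool 2. These intervals did not overlap, so the WT pools differed by more than counting error, by 0.30 on the log2 scale. The gap between the WT pools was larger for only 11.3% of genes. In the transgenic pools *Nkx2-5* was even, with a range of 0.12 on the log2 scale, and 71.5% of genes had a wider one. The intervals hold for read sampling alone, as PCR duplicates were not counted apart.

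In the comparison across all 12857 genes, with limma on log2(CPM + 0.5), the log2 difference of *Nkx2-5*, transgenic minus WT, was 0.03 (standard error 0.09, limma adjusted p = 0.914). The 95% interval ran from -0.16 to 0.22, which is 89.4% to 116.1% of the WT level. A log2 difference of -1 lay outside it. The interval leaves room for changes within 89.4% to 116.1% of the WT level, so it does not show that the level was equal. Its width rests on a variance drawn towards that of other genes. Without the variance trend the interval was wider, from -0.24 to 0.29. An exact permutation test of the 5 pools gave a two-sided p of 1, where 3 pools against 2 cannot give less than 0.2. At the standard error of *Nkx2-5*, a log2 difference of 0.34, or a fall of 21.2%, would have been past the adjusted threshold of 0.05. A fall to 50% would have been called with that error, whereas smaller falls than 21.2% would not. This holds for the fit as reported, since without the variance trend 0 genes were called lower.

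The transgenic hearts did differ from WT hearts in other genes. Of all genes tested, 2.82% passed the adjusted threshold of 0.05 (362 genes, 157 higher and 205 lower in transgenic hearts), and *Nkx2-5* was not among them. The split was 125 higher and 251 lower with the libraries rescaled to the same total. It turned over with a single WT pool, to 36 higher and 9 lower without WT pool 1 and to 33 higher and 10 lower without WT pool 2, and without the variance trend 10 genes were higher and 0 lower. In 14.3% of genes the log2 difference was smaller in size than that of *Nkx2-5*. The median log2 difference over all genes was 0.00. In abundance it stood at the 63.9th percentile of the genes. Among the 1747 other genes with a mean level from 38.3 to 59.9 CPM, around its own mean of 47.9 CPM, 51 (2.92%) were called, 3 fell to a log2 difference of -1 or less, and the median standard error was 0.08, against 0.09 for *Nkx2-5*. A fall on the scale of a lost allele was thus rare at this level. Over all genes, 27 had a log2 difference of -1 or less.

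**Figure D2:**
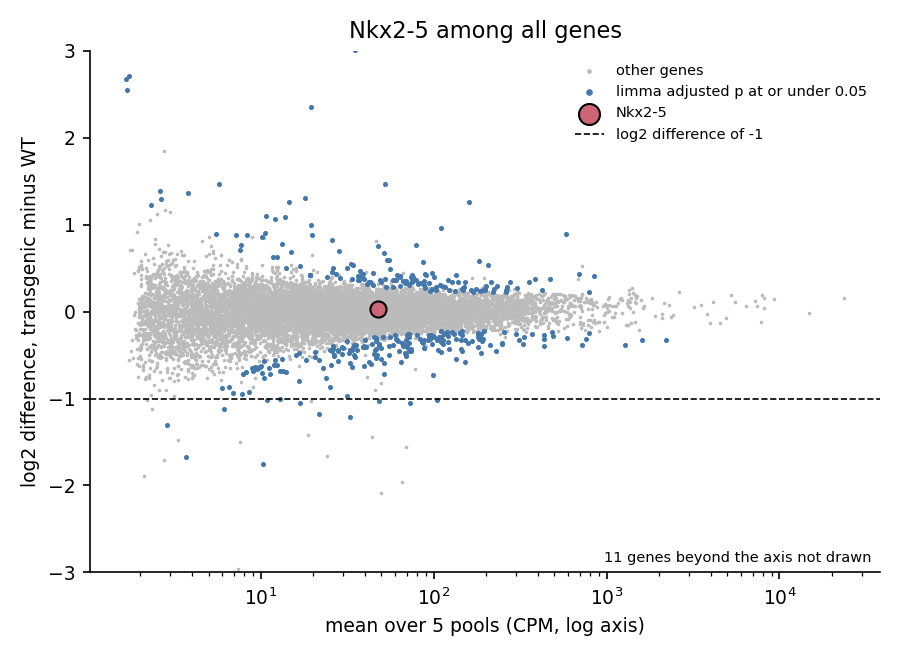
Log2 difference, transgenic minus WT (vertical axis), against the mean over the 5 pools in CPM (horizontal log axis), with 1 point for each gene; blue points passed the adjusted threshold of 0.05 and 11 genes lie beyond the axis. *Nkx2-5*, the large point, sits at 0.03 in the middle of the genes that were not called, far from the dashed line at -1.

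The distance from the level of a lost allele did not rest on a single setting. In all 13 alternatives, which changed the pseudocount, the filter, the variance trend, the scaling or the pools, the lower end of the 95% interval stayed above -1, and it was never under -0.33. The setting without a filter repeats the reported fit, as the filter removed no gene. *Nkx2-5* was not called in any of the alternatives, with limma adjusted p-values from 0.480 to 0.984. The sign, in contrast, depended on which WT pool was kept. Without WT pool 1 the log2 difference was 0.18 (95% interval -0.03 to 0.39), and without WT pool 2 it was -0.12 (95% interval -0.33 to 0.08). With 1 WT pool left, that pool is taken to vary like the transgenic pools.

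**Figure D3:**
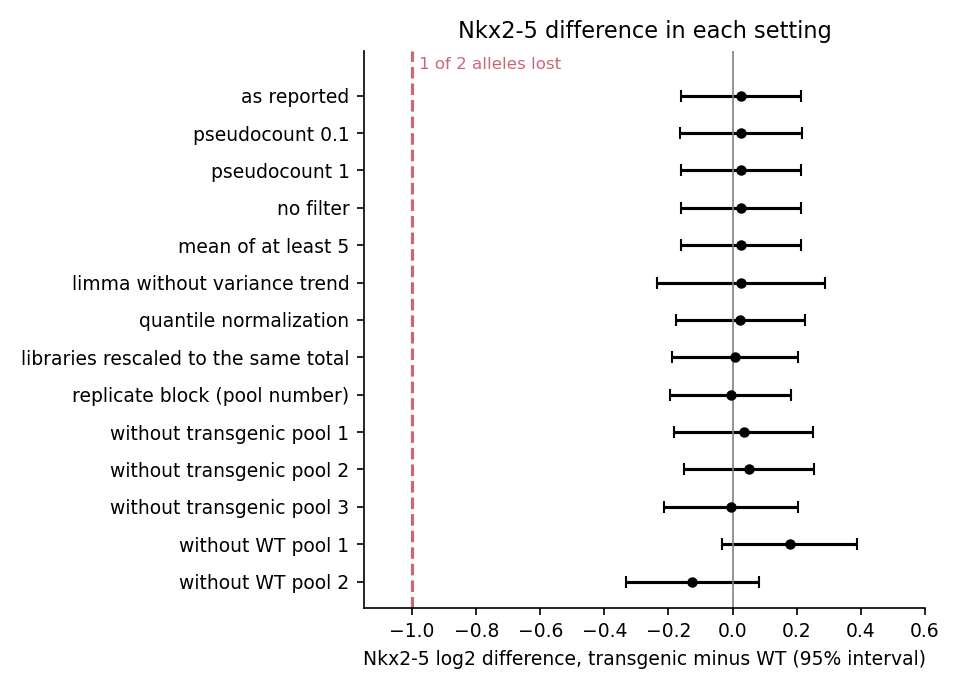
Log2 difference of *Nkx2-5*, transgenic minus WT (horizontal axis), with its 95% interval, as reported and in each of the 13 alternatives (vertical axis). All intervals lie to the right of the dashed line at -1, which would mark the loss of 1 of 2 equally active alleles. Only the settings without WT pool 1 or WT pool 2 move the point by more than 0.1.

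Of 11 partner transcription factors, 6 could be paired with an identifier, and all 6 come from the list of differing genes made from these pools, so the counts that follow are no independent evidence. The 5 partners that could not be paired, among them *Tbx5*, *Mef2c* and *Srf*, are not analysed here. In all 6 the pools of the 2 genotypes did not overlap, which was so for 35.7% of all genes. Of the 6 partners, 4 rose, 1 fell and 1 did not pass the test, against 1.22% of all genes called higher and 1.59% called lower. *Tbx20*, a T-box factor of chamber myocardium, was at 948, 954 and 896 CPM in transgenic pools 1, 2 and 3 and at 670 and 739 CPM in WT pools 1 and 2. No transgenic pool was as low as either WT pool, and the log2 difference was 0.41 (standard error 0.06, limma adjusted p = 0.00162). *Gata4*, the zinc finger factor that binds Nkx2-5 on cardiac promoters, was at 286, 282 and 264 CPM in transgenic pools and at 233 and 240 CPM in WT pools. Its rise was smaller, 0.23 on the log2 scale (limma adjusted p = 0.0411). The log2 difference was 0.69 for *Tbx3*, a T-box factor of the atrioventricular canal and conduction system, and 0.32 for *Hand2*, a bHLH factor of the right ventricle (limma adjusted p-values of 0.00547 and 0.0132). *Gata6*, a close relative of *Gata4*, had a log2 difference of 0.21 and was not called (limma adjusted p = 0.0591). *Myocd*, the coactivator of Srf, was the partner that fell, by 0.37 on the log2 scale, from 113 and 115 CPM in WT pools to 98.5, 81.5 and 85.2 CPM in transgenic pools (limma adjusted p = 0.0136).

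Ratios to *Nkx2-5* within a pool do not depend on how the libraries were scaled. They were computed after the values were seen. The ratio of *Tbx20* CPM to *Nkx2-5* CPM was 19.9, 20.5 and 17.8 in transgenic pools and 12.7 and 17.4 in WT pools. The ratio was higher in every transgenic pool, but transgenic pool 3 and WT pool 2 were close to each other. The ratio of *Gata4* to *Nkx2-5* was 6.01, 6.08 and 5.23 in transgenic pools and 4.44 and 5.65 in WT pools. Here the groups overlapped, with WT pool 2, the pool with the lowest *Nkx2-5*, above transgenic pool 3. For *Bmp2*, the gene that the transgene carries, the ratio was 0.482, 0.582 and 0.462 in transgenic pools and 0.268 and 0.240 in WT pools. *Bmp2* thus rose from 0.254 ± 0.0197 (SD, n = 2) to 0.508 ± 0.0645 (SD, n = 3) of the *Nkx2-5* value. In these ratios an exact two-sided permutation test gave p = 0.4 for *Gata4* and 0.2, the smallest that it can give, for *Bmp2* and *Tbx20*. The values in CPM are not corrected for gene length, so only the change of a ratio between pools can be read.

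Of the 11 genes that act upstream of *Nkx2-5* in cardiac progenitors, 3 could be paired with an identifier, again all from the list of the study. Besides *Gata4*, these were *Bmp2* and *Bmpr2*, a type II BMP receptor. *Bmp2* was called higher, with a log2 difference of 0.99 (standard error 0.13, limma adjusted p = 0.000712), in which transgene and endogenous reads are not told apart. *Bmpr2* had a log2 difference of -0.42 and was not called (limma adjusted p = 0.0522). It was close to the threshold, and it was called with a filter on a mean of at least 5 CPM, with rescaled libraries and without transgenic pool 1 (limma adjusted p-values of 0.0459, 0.0447 and 0.0108). *Bmp2* RNA was thus at nearly 2 times its WT level in hearts in which *Nkx2-5* RNA stood at 101.9% of the WT level.

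Of 20 genes that Nkx2-5 is known to activate, 8 could be paired with an identifier, and of these 6 rose and 2 fell, against 1.22% of all genes called higher and 1.59% called lower. All 8 come from the study's list of differing genes, so nothing can be read from this share. The other 12, among them *Nppa*, *Nppb*, *Actc1* and *Myl2*, are not analysed here. *Id2*, an inhibitor of bHLH factors and also a BMP target, rose by a log2 difference of 0.96 (limma adjusted p = 1.26e-06). *Ankrd1*, a stress-responsive cardiac ankyrin repeat protein, was at 828, 869 and 635 CPM in transgenic pools and at 538 and 605 CPM in WT pools, a log2 difference of 0.43 (limma adjusted p = 0.0273). *Hand1*, *Kcne1*, *Mycn* and *Irx4* were called higher, with log2 differences of 0.50, 0.36, 0.34 and 0.33 (limma adjusted p-values of 0.0463, 0.0350, 0.0478 and 0.0134). *Hand1* encodes a bHLH factor of the left ventricle, *Kcne1* a potassium channel subunit, *Mycn* a growth regulator of compact myocardium and *Irx4* a homeobox factor of ventricular identity. The 2 that fell were *Gja5* and *Slc8a1*. *Gja5*, a connexin of trabecular myocardium, was at 107, 98.6 and 135 CPM in transgenic pools and at 162 and 168 CPM in WT pools, a log2 difference of -0.55 (limma adjusted p = 0.00494). *Slc8a1*, the sodium-calcium exchanger, fell by 0.39 on the log2 scale (limma adjusted p = 0.00930).

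Of 8 genes that Nkx2-5 is known to hold back, 5 could be paired with an identifier, again all from the list of the study, and 2 rose, 2 fell and 1 did not pass the test (1.22% of all genes were called higher and 1.59% lower). *Bmp2* and *Tbx3* rose, while *Bmp10* and *Pdgfra* fell. *Bmp10*, a ligand of trabecular myocardium, was at 15.2, 10.7 and 17.4 CPM in transgenic pools and at 33.4 and 32.2 CPM in WT pools. Its log2 difference of -1.18 (95% interval -1.50 to -0.86, limma adjusted p = 0.000626) is of the size that was not seen for *Nkx2-5*. *Pdgfra*, a growth factor receptor of mesenchyme and early cardiac mesoderm, fell by 0.34 on the log2 scale (limma adjusted p = 0.00919). *Hcn4*, the pacemaker channel, had a log2 difference of -0.45 and was not called (limma adjusted p = 0.0738).

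**Figure D4:**
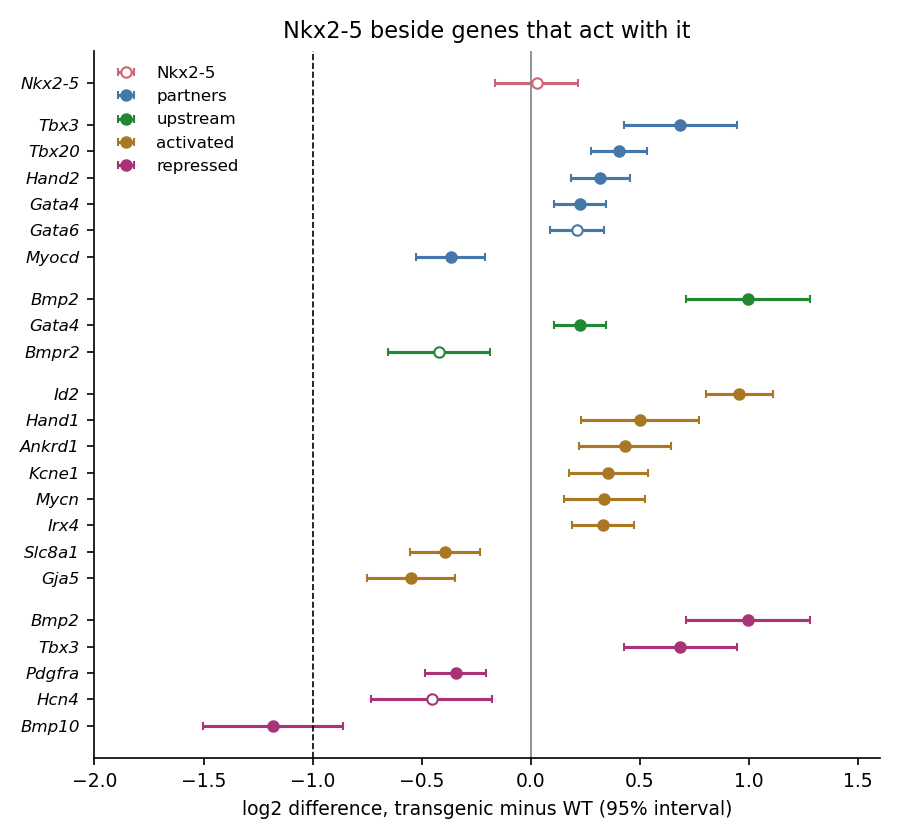
Log2 difference, transgenic minus WT, with its 95% interval (horizontal axis) for *Nkx2-5* and for the 19 genes of the 4 lists that could be paired with an identifier (vertical axis; *Gata4*, *Bmp2* and *Tbx3* stand in 2 lists). Filled points passed the adjusted threshold of 0.05; *Nkx2-5* sits at 0.03 while the genes around it spread from -1.18 to 0.99, on both sides within the activated and the repressed genes.

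Over the 4 lists, 16 of 19 genes were called, a share that the study's own choice of these genes sets. The calls were not equally firm. Without transgenic pool 1, and likewise without transgenic pool 2, 11 of the 16 were called, and *Ankrd1*, *Gata4*, *Hand1*, *Kcne1* and *Mycn* were lost each time. Without WT pool 1, 3 of the 16 were called, and without WT pool 2, 4 were. In limma without the variance trend 0 of the 16 were called, where 10 genes were called in all. All 16 kept their direction in these settings, but that was fixed in advance. Their pools did not overlap between the genotypes, so leaving out a pool cannot turn the sign. The variance trend does not enter the log2 difference. Over the 13 alternatives the limma adjusted p of *Gata4* ranged from 0.0124 to 0.307 and that of *Mycn* from 0.00969 to 0.396.

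The hearts hold several cell types, and in whole tissue fewer cells of a type and less RNA per cell cannot be told apart. All markers and reference genes that could be paired come from the study's list of differing genes, so nothing can be read from their calls. Of all genes, 1.22% were called higher and 1.59% lower. Of the 12 cardiomyocyte markers, only *Ryr2*, the calcium release channel, could be paired with an identifier. It was at 425 to 480 CPM in transgenic and at 548 and 556 CPM in WT pools, and it was called lower (log2 difference -0.28, limma adjusted p = 0.0175). Of 5 atrial markers only *Myl7*, an atrial myosin light chain that embryonic ventricles also express, could be paired. It was at 617 to 869 CPM in transgenic and at 373 and 384 CPM in WT pools (log2 difference 0.90, limma adjusted p = 0.000166), in hearts from which the atria had been removed. Of 8 endothelial and endocardial markers 3 could be paired. *Kdr* and *Tie1* were called lower, with log2 differences of -0.46 and -0.31, and *Cdh5* was at -0.25 and not called (limma adjusted p-values of 0.00286, 0.0277 and 0.0563). *Tbx18*, 1 of 5 epicardial markers, was called higher by 0.37 (limma adjusted p = 0.00476). *Pdgfra* was the only 1 of 7 cushion mesenchyme markers and 0 of 6 red cell markers could be paired. The part of these differences in the *Nkx2-5* level was not tested, and *Nkx2-5* per cardiomyocyte was not measured. *Ppia*, the only 1 of 6 reference genes that could be paired, was called lower (log2 difference -0.40, limma adjusted p = 0.0291), in values where reads of its many near-identical copies may be split. None of the other 8 members of the NK family and none of the 3 genes of the *Rosa26* locus could be paired.

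The genes whose pattern over the 5 pools was most like that of *Nkx2-5* are given as a description. Among 10089 genes with a mean of at least 10 CPM, 5 had a Pearson correlation with *Nkx2-5* of at least 0.99 in log2(CPM + 0.5), and 117 (1.16%) had at least 0.9. The 5 points share their libraries and their scaling. The most alike, ENSMUSG00000026174 (correlation 0.999), was at 55.6, 54.9 and 57.0 CPM in transgenic pools and at 57.8 and 52.7 CPM in WT pools. The next, ENSMUSG00000074643 (correlation 0.999), was at 63.5, 62.2 and 65.9 CPM in transgenic pools and at 67.9 and 59.0 CPM in WT pools. Choosing genes by this correlation fixes both the order of the pools and a small difference between the genotypes, so neither is a finding. None of the 5 most alike genes could be paired with a name.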

How the data were processed

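RNA was sequenced by the authors from pools of 4 hearts, with the genotypes and pool numbers given by the labels. The authors removed adaptors with cutadapt, quantified genes with RSEM and Bowtie over GRCm38 and an Ensembl gene set, normalized with edgeR, and deposited CPM, of which 12857 genes were analysed; 0 columns of values were left unused. The genotypes were compared in R 4.3.3 by limma 3.58.1 (eBayes with a variance trend, no covariates) on log2(CPM + 0.5), with Benjamini-Hochberg adjustment over all genes and a threshold of 0.05. A filter of at least 1 CPM in at least 2 libraries removed 0 genes. Every value (100%, within 0.01 of a whole number) was a whole multiple of the smallest step of its library. That step gave the *Nkx2-5* reads and scaled (effective) library sizes of 7460670 to 10456500, and the listed genes held 7427905 to 10564780 reads. Planned edgeR and DESeq2 tests were not run, because a check that starts from the lowest value recovered whole reads in only some libraries.

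Names were paired with Ensembl identifiers through the supplementary list of the study (406 genes) and positions come from RefSeq (GRCm38.p6, which holds no Ensembl identifiers). Scaling *Nkx2-5* to cardiomyocyte or reference genes, and values of its neighbours, were planned and not run, because too few identifiers were paired. *Nkx2-5* and the gene lists were chosen with earlier results of these data known. Besides list members without a paired identifier, 1 gene of the lists is not reported here. Other genes named are the list members that could be paired, called or not, and the genes most correlated with *Nkx2-5*. The limma step was tested on simulated data with a single dispersion for all genes and pools. Such data cannot show how unequal spread between genes or pools acts on the calls. Python 3.11.15 with scipy 1.17.1, pandas 2.3.3, numpy 2.4.6 and matplotlib 3.10.9 made the tables and figures. The pools are separate by their labels. The limma p-values and intervals rest on the spread between these pools, with the variance of each gene drawn towards that of other genes. That spread does not include the WT pool that the authors left out for its poor clustering, so it may be too small. For *Nkx2-5* the residual SD was 0.13 on the log2 scale, against a median of 0.096 over all genes.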

Additional observations from a re-analysis of the deposited data

How the results depend on the processing

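*Nkx2-5* kept its side of both comparisons in all 13 alternatives (not called, and an interval above -1). Its log2 difference, 0.03 as reported, changed sign in 3 of them: it was -0.0060 with the pool number as a replicate block, -0.0060 without transgenic pool 3 and -0.12 without WT pool 2. With each pool left out in turn it ranged from -0.12 to 0.18, and the lower end of its interval from -0.33 to -0.03. The number of genes called, 362, became 10 without the variance trend (2275 genes had an unadjusted limma p under 0.05) and 655 with the replicate block, and ranged from 43 to 464 with each pool left out in turn, being 226 without transgenic pool 2, 45 without WT pool 1 and 43 without WT pool 2. The cause was not tested, other than that a single WT pool leaves fewer samples. Whether same-numbered pools were handled together is not given by the labels. The correlation of their deviations from the genotype means was -0.0259 for pools 1 and -0.0499 for pools 2. With 2 WT pools the WT deviations mirror each other, so this correlation cannot decide whether such pools share a batch. Under the block *Nkx2-5* stayed uncalled and all 16 called genes of the 4 lists stayed called. *Bmpr2* and *Hcn4*, not called as reported, were called there (limma adjusted p-values of 0.0341 and 0.0486). The block calls use the log2 differences of the setting without transgenic pool 3, with fewer residual degrees of freedom. They are therefore no separate support. In the fit as reported, a fall of *Nkx2-5* under 21.2% would not have been called at its standard error. The planned count tests and the scaling to cardiomyocyte or reference genes were not run.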
